A study of Homo sapiens with 12 samples.

Results

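The HOX cluster genes were taken as every protein-coding gene of the count table named HOXA, HOXB, HOXC or HOXD followed by a number, which gave 39 of the 58735 genes counted. HOXA held 11 of them (chr7:27092993-27200106), HOXB 10 (chr17:48528526-48729178), HOXC 9 (chr12:53938765-54056030) and HOXD 9 (chr2:176092891-176190907), all on hg38. They were measured by polyA RNA-seq in C4.2B, a human prostate cancer line that descends from LNCaP and is castration-resistant. All arms were kept for 6 days in vehicle or drug, were then switched to medium with 10% charcoal-stripped FBS, which is low in steroid hormones, and were collected 24 hours later. The arms were DMSO vehicle throughout, the AKT inhibitor ipatasertib added at 0.25 µM for the last 24 hours (AKTi), the EZH2 inhibitor tazemetostat at 1 µM from 6 days before (EZH2i), and both (combination). Each arm had 3 libraries, A, B and C, whose values are always given in that order. All 12 libraries come from a single cell line. By the study's methods, cells were seeded in triplicate plates the day before dosing, late in the pretreatment, so p-values measure the spread between plates, and how many separate pretreatments lie behind an arm is not given in the sources used here.

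HOX genes encode homeodomain transcription factors that set the identity of body segments. Within a cluster they lie in the order in which they act from head to tail, and genes with the same number in different clusters are paralogues that arose when the cluster was copied in vertebrate evolution. Their silencing is a classic task of Polycomb, whose enzyme EZH2 methylates histone H3, and the prostate forms in a domain where genes from the tail end of the clusters are active, with HOXB13 as its best known member.

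Totals ranged from 14133755 to 22276417 counts per library. All 9 luminal prostate markers listed were detected. Their summed level was 3585 to 3682 counts per 1000000 TMM-scaled reads (CPM) in DMSO and 5561 to 5716 with AKTi. It was 6292 to 6584 with EZH2i and 8477 to 8652 in the combination. KLK3 was the largest part, with a mean of 1372 CPM in DMSO and 3941 in the combination. By the test below, 7 were called higher and 2 lower with AKTi, 7 and 1 with EZH2i and 8 and 1 in the combination. Of all genes 42.5%, 64.1% and 73.2% were called. EPCAM was lower in every treated arm. The basal markers KRT5, KRT14 and TP63 were at 0 or reached at most 0.367 CPM in sum, with KRT5 at 0 in every library. The summed immune list stayed at or under 1.17 CPM, with CD3E at 0 throughout. All 5 fibroblast genes had counts, with sums of 4.94 to 7.47 CPM in DMSO, 4.70 to 6.67 with AKTi, 17.2 to 19.6 with EZH2i and 11.2 to 15.6 in the combination, most of it COL1A1. These lists moved with the arms, and their part in the HOX results was not tested. In bulk RNA, fewer cells with a transcript and less of it per cell cannot be told apart. EZH2 mRNA itself fell with each treatment, by 0.87 on the log2 scale with AKTi, 1.10 with EZH2i and 1.73 in the combination.

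Of the 39 genes, 25 had enough counts to be tested, 9 in HOXA, 6 in HOXB, 9 in HOXC and 1 in HOXD. Another 7 were at 0 in every library (HOXB1, HOXD1, HOXD3, HOXD4, HOXD9, HOXD10 and HOXD11), which allows up to 0.138 to 0.221 CPM in a single library, where 3 counts are taken as the limit of a zero. The remaining 7 had at most 53 counts over all libraries (HOXA2, HOXA7, HOXB2, HOXB4, HOXB8, HOXD8 and HOXD12). Intervals and limits of this kind cover counting error only.

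The test was edgeR's quasi-likelihood test with Benjamini-Hochberg adjustment over 16646 genes, and a gene is called at an adjusted p-value under 0.05. With EZH2i alone 13 of the 25 tested genes rose and 3 fell. Of all genes tested 64.1% were called in this comparison, 32.6% higher and 31.5% lower, so the share of HOX genes called in either direction (64.0%) was that of the whole table, and 52.0% were higher and 12% lower. With scaling by library size only, the HOX split was 15 higher and 1 lower, and 39.8% of all genes were higher and 25.2% lower. The combination against DMSO gave 11 higher and 4 lower, against 38% and 35.2% of all genes (73.2% in either direction). AKTi alone gave 6 higher and 3 lower, where 20.6% and 21.9% of all genes were called (42.5% in either direction). The median log2 fold change of the tested HOX genes was 0.79 with EZH2i, 0.58 in the combination and -0.05 with AKTi, beside medians of 0.03, 0.06 and 0.01 over all tested genes. Some genes passed the count filter only through other libraries than those of DMSO. HOXA9, HOXC10 and HOXC11 reached the filter's minimum, 0.639 CPM before TMM scaling, in no DMSO library but in treated ones, which favours a rise there. HOXC10 still overlapped DMSO in every treated arm. Without these genes 11 of 22 rose and 3 fell with EZH2i (median 0.69), and 10 rose and 4 fell in the combination (median 0.38). For AKTi against DMSO the genes at the minimum in 1 of these arms only were HOXA9 and HOXC5, without which 6 of 23 rose and 3 fell and the median was 0.15, above 0 instead of below.

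**Figure D1:**
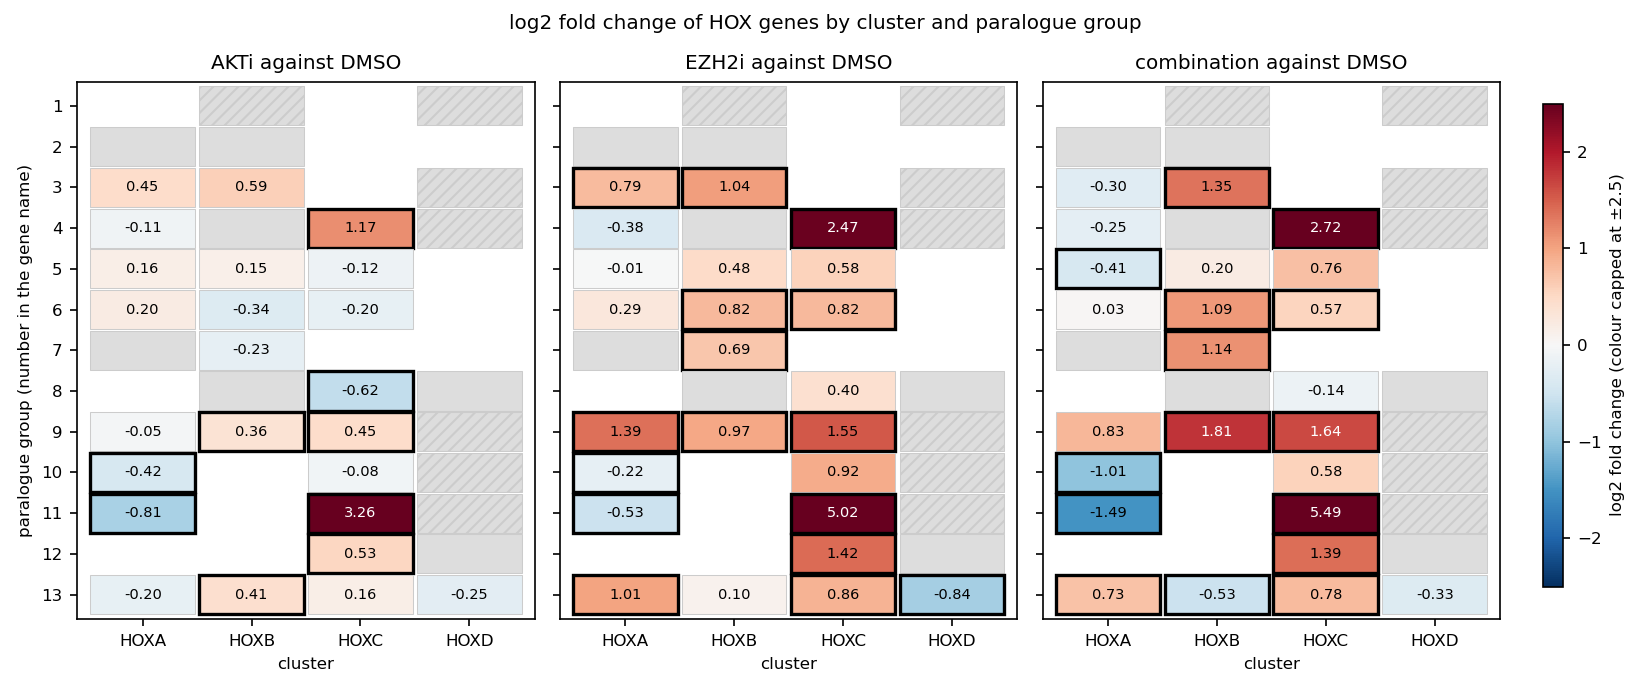
log2 fold change of HOX genes against DMSO with AKTi (left), EZH2i (middle) and the combination (right), with clusters as columns and the number in the gene name as rows. Black frames mark genes called by edgeR at an adjusted p-value under 0.05, plain grey cells are genes with too few counts to test, hatched cells are genes at 0 in all 12 libraries and white cells are places without a gene or not reported. In the EZH2i panel 6 framed HOXC cells are all above 0, while HOXA10, HOXA11 and HOXD13 are the framed cells below 0.

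The windows around the RefSeq start sites show how much these genes differ in CG content, the dinucleotide whose density marks the promoters that Polycomb often occupies. RefSeq windows on GRCh38.p14, 250 bases before to 50 bases after a start, were matched for 20 of the 39 genes, in 27 windows. They held 0 to 44 CG, with a median of 22, beside a median of 14 over 35116 windows of all genes. Windows of 4 genes with different behaviour are printed 5′ to 3′ on the gene's strand with each CG in capitals. They are HOXC4 (chr12:54016638-54016937, plus strand), which rose in all treated arms, HOXA11 (chr7:27185183-27185482, minus strand), which fell in all of them, HOXA13 (chr7:27200042-27200341, minus strand), which rose with EZH2i, and HOXD10 (chr2:176116528-176116827, plus strand), which stayed at 0.
HOXC4: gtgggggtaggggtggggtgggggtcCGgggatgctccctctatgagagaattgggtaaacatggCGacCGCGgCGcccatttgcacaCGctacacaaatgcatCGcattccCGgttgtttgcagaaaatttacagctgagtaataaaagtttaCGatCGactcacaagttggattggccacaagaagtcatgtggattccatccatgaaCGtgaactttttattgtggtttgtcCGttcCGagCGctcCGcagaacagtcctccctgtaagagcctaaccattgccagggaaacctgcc
HOXA11: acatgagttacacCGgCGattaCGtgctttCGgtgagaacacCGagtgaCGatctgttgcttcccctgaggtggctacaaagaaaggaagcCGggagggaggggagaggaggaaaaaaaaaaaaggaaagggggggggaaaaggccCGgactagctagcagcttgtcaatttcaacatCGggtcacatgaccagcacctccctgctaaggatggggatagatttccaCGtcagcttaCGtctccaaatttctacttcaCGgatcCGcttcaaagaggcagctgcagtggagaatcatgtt
HOXA13: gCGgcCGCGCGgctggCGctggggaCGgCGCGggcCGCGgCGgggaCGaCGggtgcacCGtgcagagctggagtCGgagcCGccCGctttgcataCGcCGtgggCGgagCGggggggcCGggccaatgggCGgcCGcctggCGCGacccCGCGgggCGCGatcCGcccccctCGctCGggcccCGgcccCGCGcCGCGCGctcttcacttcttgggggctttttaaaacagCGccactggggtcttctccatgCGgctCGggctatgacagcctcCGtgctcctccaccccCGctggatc
HOXD10: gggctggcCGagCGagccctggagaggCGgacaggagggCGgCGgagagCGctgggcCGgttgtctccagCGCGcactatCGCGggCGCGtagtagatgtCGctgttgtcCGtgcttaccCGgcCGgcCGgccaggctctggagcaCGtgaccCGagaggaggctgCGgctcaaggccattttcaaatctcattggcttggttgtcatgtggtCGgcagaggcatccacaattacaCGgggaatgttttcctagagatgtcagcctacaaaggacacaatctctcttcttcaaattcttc
The HOXC4 window held 15 CG (48.9% of all windows hold at least as many), HOXA11 13 (51.7%), HOXA13 44 (4.19%) and HOXD10 23 (35.8%). HOXC5 is matched to the same window as HOXC4, but HOXC5 as counted starts at chr12:54032853, so the window does not lie at its start. HOXD10 as counted starts at chr2:176108790, so its window lies inside the counted gene and not at its start. HOXC4 was called in every treated arm and HOXC5 in none. In GENCODE v44 67.3% of the exonic bases of HOXC5 are shared with genes of the same strand. HOXA13, with the most CG of the matched windows, rose, and HOXD10, with more CG than HOXC4 and HOXA11, had no count.

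Of the tested HOXC genes EZH2i raised 6 of 9, with HOXC11 among them, and of those in HOXB 4 of 6, a share of 66.7% in each. The combination raised the same numbers. Of all genes 32.6% were called higher with EZH2i and 38% in the combination. No HOXC gene was called lower in either arm by edgeR or DESeq2, nor at an unadjusted edgeR p under 0.05. HOXC4 (ENSG00000198353, chr12:54016931-54056030), a gene of the head end of the cluster known for its work in B lymphocytes, was at 2.42, 2.65 and 1.39 CPM in DMSO. It was at 5.42, 4.34 and 4.31 CPM with AKTi, at 12.8, 10.3 and 11.7 with EZH2i and at 14.4, 14.4 and 12.5 in the combination. The lowest AKTi library lay above the highest DMSO library, and every EZH2i and combination library lay above all AKTi libraries. HOXC4 was 2.25-fold higher with AKTi (log2 1.17 ± 0.21 SE, edgeR adjusted p = 2.14e-05), 5.54-fold higher with EZH2i (2.47 ± 0.19, adjusted p = 3.97e-14) and 6.60-fold higher in the combination (2.72 ± 0.19, adjusted p = 8.46e-16). In GENCODE v44 17.5% of its exonic bases are shared with genes of the same strand, HOXC6 among them, so part of its reads may have been dropped or assigned elsewhere.

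HOXC9 (ENSG00000180806, chr12:53994895-54003337), a regulator of the trunk, was at 9.63, 9.66 and 9.59 CPM in DMSO, 11.6, 15.9 and 12 with AKTi, 31.5, 25.2 and 28.1 with EZH2i and 31.1, 26.4 and 32.6 in the combination. The 3 DMSO libraries were nearly equal, and EZH2i and combination libraries overlapped each other but no others. Its rise was 2.93-fold with EZH2i (log2 1.55 ± 0.12, edgeR adjusted p = 5.47e-14) and 3.12-fold in the combination (1.64 ± 0.12, adjusted p = 5.07e-15). With AKTi it was 1.37-fold higher (adjusted p = 0.00476), a call that AKTi library B decided, since without it the log2 fold change was 0.27 (edgeR adjusted p = 0.138).

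HOXC12 (ENSG00000123407, chr12:53954834-53958956), a tail-end gene, was at 16.6, 18.7 and 18.8 CPM in DMSO, 24.2, 24.9 and 29.0 with AKTi, 51.7, 44.6 and 48.6 with EZH2i and 51.8, 47.3 and 42.8 in the combination. Again all AKTi libraries lay above DMSO and below both arms with EZH2i, which overlapped. The rise was 1.44-fold with AKTi, 2.67-fold with EZH2i and 2.62-fold in the combination (edgeR adjusted p = 2.78e-05, 4.66e-16 and 3.53e-16). HOXC13, needed for hair and nails, went from 30.3 ± 2.59 CPM (SD, n = 3) in DMSO to 54.9 ± 3.27 with EZH2i and 52.1 ± 2.88 in the combination, 1.82-fold and 1.72-fold. HOXC6, known to be raised in prostate cancers, went from 30.8 ± 3.45 CPM to 54.1 ± 0.871 with EZH2i and 45.3 ± 4.17 in the combination, 1.76-fold and 1.48-fold.

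HOXC11 (ENSG00000123388, chr12:53973126-53977643) was almost silent in vehicle. It passed the count filter only through the arms with EZH2i, which favours a rise there. It had 1, 0 and 0 counts in DMSO, 5, 5 and 1 with AKTi, 9, 12 and 29 with EZH2i and 27, 21 and 19 in the combination. Over the pooled libraries of an arm, scaled for depth, the ratio to the single DMSO count was 45.8 with EZH2i (95% counting interval 7.85 to 1840) and 61.6 in the combination (10.7 to 2470). The AKTi ratio was 12.8 (1.85 to 549), and its call was lost without DMSO library B or C or AKTi library A or B, when the edgeR adjusted p was 0.0584 to 0.091. Of the other HOXC genes, HOXC5 and HOXC10 were called in none of the arms, and HOXC8 fell with AKTi from 4.31, 4.79 and 4.70 to 3.04, 2.80 and 3.13 CPM (1.54-fold lower, edgeR adjusted p = 0.0122). HOXC8 was at 6.63, 5.38 and 6.25 CPM with EZH2i, all above DMSO, but missed the threshold (log2 0.40, 95% interval 0.04 to 0.76, adjusted p = 0.0541). It was called in 4 alternatives, both other scalings among them.

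**Figure D2:**
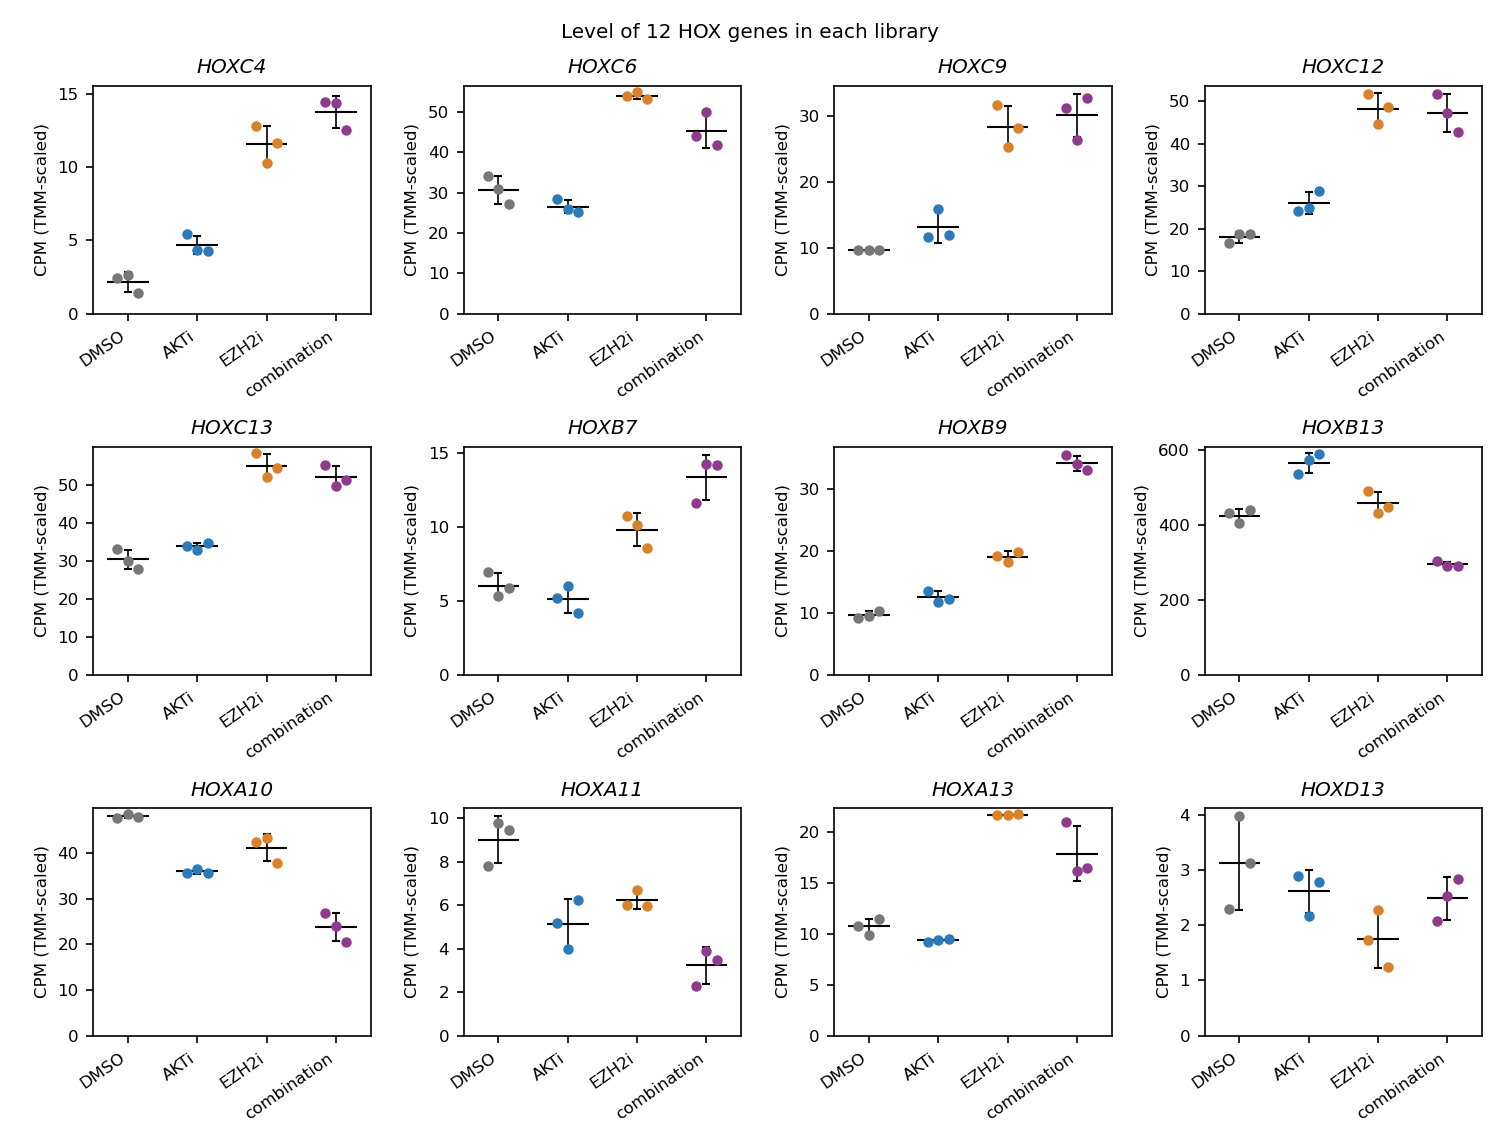
Level in CPM (linear axes starting at 0) of 12 HOX genes in each library, by arm. Points are the 3 libraries of an arm, lines the mean and bars 1 SD. HOXC4, HOXC9 and HOXC12 step up from DMSO through AKTi to the arms with EZH2i, HOXB13 is highest with AKTi and lowest in the combination, and HOXA10 and HOXA11 are lowest in the combination.

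HOXB was split between its last gene and the others. HOXB13 (ENSG00000159184, chr17:48724763-48729178), the homeobox factor of prostate luminal cells and a partner of the androgen receptor, was at 430, 403 and 440 CPM in DMSO and 536, 571 and 588 with AKTi. It was at 491, 431 and 448 CPM with EZH2i and at 303, 290 and 289 in the combination. All AKTi libraries lay above DMSO, all combination libraries lay below every other library, and EZH2i libraries overlapped DMSO. The change was 1.33-fold higher with AKTi (edgeR adjusted p = 1.07e-07) and 1.44-fold lower in the combination (adjusted p = 1.01e-10), while with EZH2i the log2 fold change was 0.10 (95% interval -0.003 to 0.21, adjusted p = 0.0955), which was called in 4 alternatives, both other scalings among them. HOXB13 carried 92.7% of the summed level per kilobase of its cluster in DMSO, 94.2% with AKTi, 88.5% with EZH2i and 76.7% in the combination.

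HOXB9 (ENSG00000170689, chr17:48621159-48626356), which lies next to HOXB13 among the clustered genes, moved the other way in the combination. It was at 9.22, 9.52 and 10.3 CPM in DMSO, 13.6, 11.7 and 12.2 with AKTi, 19.1, 18.2 and 19.9 with EZH2i and 35.5, 34.1 and 33.0 in the combination. The 4 arms did not overlap at all. HOXB9 was 1.97-fold higher with EZH2i (log2 0.97 ± 0.11, edgeR adjusted p = 4.41e-10) and 3.52-fold higher in the combination (1.81 ± 0.10, adjusted p = 4.42e-18). Its AKTi rise of 1.28-fold (adjusted p = 0.00977) was lost without AKTi library A (edgeR adjusted p = 0.0657).

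HOXB7, HOXB6 and HOXB3 also rose in both arms with EZH2i. HOXB7, a growth-promoting factor in several carcinomas, was at 6.93, 5.31 and 5.85 CPM in DMSO, 10.7, 10.1 and 8.54 with EZH2i and 11.6, 14.2 and 14.2 in the combination. Every library of the arms with EZH2i lay above DMSO and above the AKTi libraries, which were at 5.21, 6.03 and 4.17. The rises were 1.61-fold with EZH2i and 2.21-fold in the combination for HOXB7, 1.76-fold and 2.13-fold for HOXB6, and 2.05-fold and 2.55-fold for HOXB3, with edgeR adjusted p-values of 2.65e-08 to 0.00891. The HOXB3 call with EZH2i was lost without DMSO library C (log2 0.83, edgeR adjusted p = 0.0629). HOXB5 was called in no arm. HOXB8, with 0 counts in DMSO, reached 18 counts over the EZH2i libraries and 34 over the combination libraries. Scaled for depth, these were 5.49-fold and 10.4-fold above a floor of 3 counts for the DMSO arm. HOXB4, also at 0 in DMSO, reached 11 counts in the combination, 3.37-fold above that floor. The counting error of the treated counts is not covered by these ratios. HOXB2 had 1 count in DMSO, 0 with AKTi, 0 with EZH2i and 1 in the combination.

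HOXB13 made up most of the summed CPM of its cluster. HOXB summed to 445 ± 19.0 CPM (SD, n = 3) in DMSO, 588 ± 25.3 with AKTi, 495 ± 32.2 with EZH2i and 352 ± 6.60 in the combination, a log2 ratio of -0.34 in the last. Without HOXB13 the same cluster went from 20.9 ± 0.643 CPM in DMSO to 22.8 ± 1.41, 38.0 ± 1.28 and 58.3 ± 1.58, and the log2 ratio in the combination was 1.48. HOXC went from 96.3 ± 5.29 CPM in DMSO to 108 ± 0.659 with AKTi, 206 ± 11.6 with EZH2i and 195 ± 7.70 in the combination. HOXA went from 81.6 ± 2.32 CPM to 66.0 ± 2.10, 85.7 ± 3.45 and 57.1 ± 4.82. HOXD stayed between 1.42 and 3.98 CPM in every library. No test was run on these sums, since the genes of a cluster are not replicates.

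**Figure D3:**
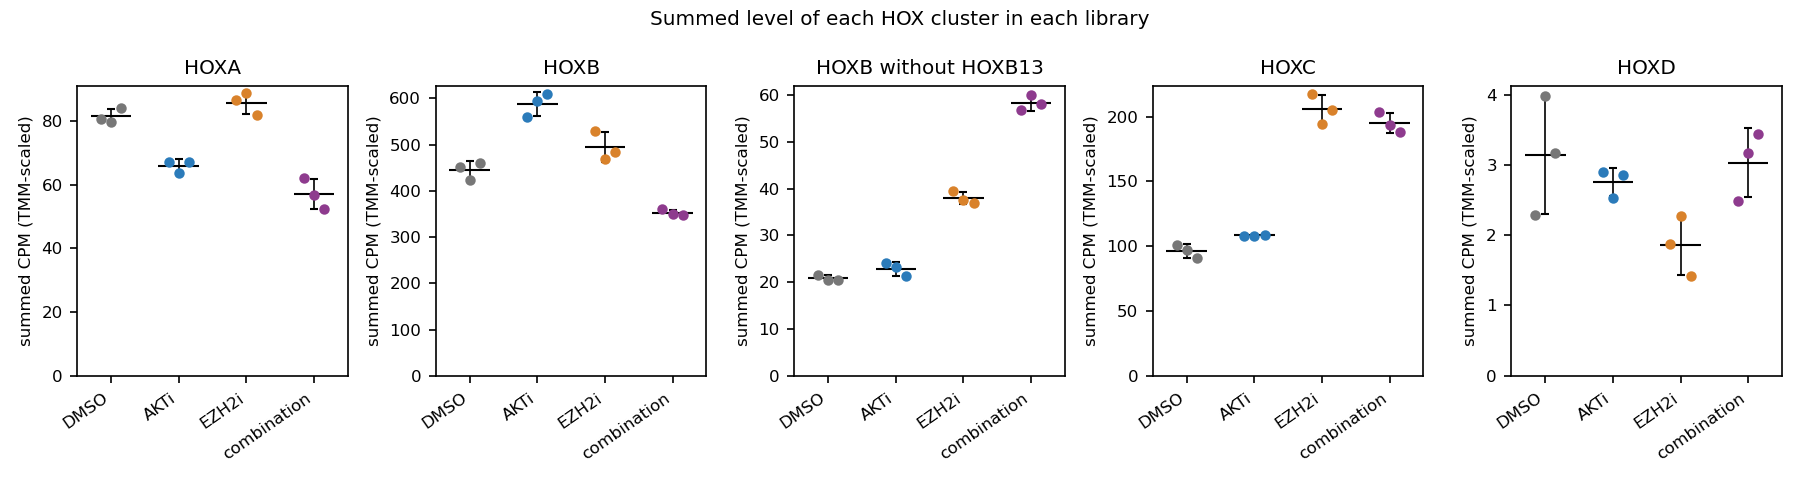
Summed CPM of the HOX genes of each cluster in each library, by arm, with linear axes starting at 0 that differ between panels. Points are libraries, lines the mean and bars 1 SD (n = 3). The HOXB panel falls to 352 CPM in the combination, whereas the same cluster without HOXB13 rises from 20.9 to 58.3 CPM.

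In HOXA, neighbouring tail-end genes moved in opposite directions. HOXA10 (ENSG00000253293, chr7:27170591-27180261), which patterns the uterus and other parts of the urogenital tract, was at 47.7, 48.5 and 47.9 CPM in DMSO, 35.6, 36.6 and 35.7 with AKTi, 42.5, 43.3 and 37.8 with EZH2i and 26.8, 24.0 and 20.5 in the combination. Every treated library lay below DMSO, and the combination lay below all others. HOXA10 was 1.33-fold lower with AKTi (edgeR adjusted p = 9.39e-05) and 2.01-fold lower in the combination (adjusted p = 3.64e-13). The fall with EZH2i, 1.17-fold (adjusted p = 0.0159), was not called with the other scalings, by library size only (log2 -0.08) and by upper quartile (-0.11), nor without EZH2i library C (-0.20, edgeR adjusted p = 0.058).

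HOXA11 (ENSG00000005073, chr7:27181510-27185223), a limb and urogenital regulator, was at 7.81, 9.81 and 9.45 CPM in DMSO, 5.21, 3.99 and 6.26 with AKTi, 6.03, 6.72 and 5.97 with EZH2i and 2.28, 3.92 and 3.50 in the combination. All treated libraries were under the lowest DMSO library, and AKTi and EZH2i overlapped. The falls were 1.75-fold, 1.45-fold and 2.81-fold (edgeR adjusted p = 0.00056, 0.00959 and 1.39e-08), the one with EZH2i not called with scaling by library size only (log2 -0.39, adjusted p = 0.0594). HOXA13 (ENSG00000106031, chr7:27193503-27200106), the next gene along and a regulator of digits and genital structures, was at 10.8, 9.96 and 11.5 CPM in DMSO, 9.26, 9.46 and 9.52 with AKTi, 21.8, 21.7 and 21.8 with EZH2i and 21.0, 16.2 and 16.5 in the combination. The arms with EZH2i lay apart from the others, 2.02-fold higher with EZH2i (edgeR adjusted p = 1.19e-09) and 1.66-fold higher in the combination (adjusted p = 8.09e-07).

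The other HOXA genes were lower or changed less. HOXA9, a driver of leukaemias together with MEIS1, was at 0.606, 0.516 and 0.623 CPM in DMSO, 0.579, 0.701 and 0.417 with AKTi, 2.01, 1.23 and 1.42 with EZH2i and 0.760, 1.499 and 0.906 in the combination. With EZH2i it was fitted as 2.61-fold higher (log2 1.39 ± 0.43, edgeR adjusted p = 0.00554), but it is one of the genes that passed the count filter through treated libraries. HOXA3, a gene of pharyngeal development, was 1.73-fold higher with EZH2i at an adjusted p of 0.0323. That call was lost without DMSO library A or C, without EZH2i library B or C and without AKTi library B (edgeR adjusted p 0.0512 to 0.117). It was also lost when all genes with a count were kept (edgeR adjusted p = 0.071). HOXA5 was 1.33-fold lower in the combination (adjusted p = 0.0312), a call lost in 7 of the alternatives, both other scalings among them. HOXA4 and HOXA6 were called in no arm. Under the filter, HOXA2 had 9 counts in DMSO, 5 with AKTi, 12 with EZH2i and 10 in the combination, and HOXA7 had 8, 11, 11 and 14.

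HOXD was nearly silent. HOXD13 (ENSG00000128714, chr2:176092891-176095938), like HOXA13 a regulator of digits and genital structures, was at 2.29, 3.98 and 3.12 CPM in DMSO, 2.89, 2.17 and 2.78 with AKTi, 1.74, 2.28 and 1.24 with EZH2i and 2.08, 2.54 and 2.84 in the combination. EZH2i libraries were all below DMSO, the highest of them by a narrow margin, and HOXD13 was 1.80-fold lower (log2 -0.84 ± 0.29, edgeR adjusted p = 0.00998). That call was lost without DMSO library B or EZH2i library C (adjusted p = 0.0511 and 0.0617), and in the combination the log2 fold change was -0.33 (95% interval -0.87 to 0.21). HOXD8 had 1 count in DMSO, 6 with AKTi, 5 with EZH2i and 29 in the combination, a ratio of 26.6 in the combination (95% counting interval 4.42 to 1090). HOXD12 had 1 count in all, and the other HOXD genes had none.

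Paralogues of the same number did not all move together. In group 13 the log2 fold changes with EZH2i were 1.01 for HOXA13, 0.10 for HOXB13, 0.86 for HOXC13 and -0.84 for HOXD13. In group 11, HOXA11 fell by 0.53 on the log2 scale while HOXC11 rose from a single count. In group 9 HOXB9 and HOXC9 rose with EZH2i by 0.97 and 1.55, HOXA9 had a log2 fold change of 1.39 with the limit of the count filter given above, and HOXD9 was at 0. In group 4, HOXC4 rose by 2.47 whereas HOXA4 had a log2 fold change of -0.38 (95% interval -1.3 to 0.53), HOXB4 had too few counts and HOXD4 was at 0.

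Levels and changes were also set against position. On the scale of CPM per kilobase of gene length, the most abundant genes in DMSO were HOXB13 (122 ± 5.42, SD, n = 3), HOXA10 (13 ± 0.103), HOXC13 (12.5 ± 1.07), HOXC6 (8.69 ± 0.974), HOXC9 (5.73 ± 0.0215) and HOXC12 (5.40 ± 0.376). HOXA10 and HOXC13 differed by less than the SD of HOXC13, as did HOXC9 and HOXC12 by less than that of HOXC12. The Spearman correlation of the level per kilobase with the number in the gene name was 0.656 in HOXB (n = 10 genes), 0.464 in HOXA (n = 11) and 0.20 in HOXC (n = 9) in DMSO, and 0.855, 0.645 and 0.283 in the combination. For the log2 fold change with EZH2i it was -0.486 in HOXB (n = 6), -0.05 in HOXA (n = 9) and 0.20 in HOXC (n = 9). In the same order it was -0.2, 0.0833 and 0.167 in the combination and -0.0286, -0.45 and 0.283 with AKTi. The HOXA and HOXC values include HOXA9, HOXC10 and HOXC11, with the limit of the count filter given above. These points share their libraries and are given as a description. HOXC shows the spread, with HOXC4 at its head end and HOXC12 at its tail end 5.54-fold and 2.67-fold higher with EZH2i and HOXC8 between them not called.

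The combination was also compared with EZH2i alone. Of the 25 tested, 2 were higher (HOXB7 and HOXB9) and 7 lower in the combination than with EZH2i alone, where 21.1% and 25.7% of all genes were called (46.7% in either direction). The share of HOX genes lower, 28%, was near that of all genes. HOXB9 was 1.79-fold higher (edgeR adjusted p = 2.28e-09) and HOXB7 1.37-fold higher (adjusted p = 0.00959), the latter lost without EZH2i library C (adjusted p = 0.0623). HOXB13 was 1.55-fold lower, HOXA10 1.72-fold lower and HOXA11 1.94-fold lower (edgeR adjusted p = 4.67e-12, 1.01e-09 and 0.000122). HOXA3 was 2.13-fold lower (adjusted p = 0.0061). The falls of HOXC8 (1.46-fold), HOXC6 (1.19-fold) and HOXA13 (1.21-fold) were smaller, and each lost its call without 1 library (EZH2i C for HOXC8, combination C for HOXC6, EZH2i B or C or combination B or C for HOXA13). HOXA13 was also not called under both other scalings, with the filter of 10 counts in every library or with only these arms fitted (edgeR adjusted p 0.0589 to 0.103), nor HOXC6 under upper quartile scaling (0.0538). The effect of EZH2i with AKTi differed from that without it (the interaction term) in 2 genes above 0 and 5 below, where 28.2% of all genes were called, 10.7% above and 17.5% below. HOXC4, HOXC9, HOXC11, HOXC12 and HOXC13 were not called between the combination and EZH2i alone, with log2 differences of -0.08 to 0.46.

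Adding EZH2i to AKTi gave 12 higher and 4 lower HOX genes, where 32.1% and 32.1% of all genes were called (64.2% in either direction). HOXC5, HOXC10 and HOXC11 reached the minimum of the count filter in no AKTi library, and without them 11 of 22 were higher and 4 lower. The higher genes were HOXA13, HOXB3, HOXB6, HOXB7, HOXB9, HOXC4, HOXC6, HOXC8, HOXC9, HOXC11, HOXC12 and HOXC13, by 1.39-fold for HOXC8 to 2.94-fold for HOXC4, leaving out HOXC11. HOXA5, HOXA10, HOXA11 and HOXB13 were lower, HOXB13 by 1.92-fold (edgeR adjusted p = 3.09e-17). The calls of HOXB3 (adjusted p = 0.0403) and HOXC8 (0.0377) were each lost when 1 of several libraries was left out, with edgeR adjusted p-values of up to 0.167 and 0.12. They were also lost when all genes with a count were kept (edgeR adjusted p = 0.0819 and 0.1225), and HOXC8 with only these arms fitted (0.0634). That of HOXA11 was lost without combination library A (0.0537).

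The HOX clusters also hold noncoding genes, many of them transcribed from the opposite strand. Of 57 in the table that overlap the spans, 30 had counts and 11 were tested. With EZH2i 7 rose and none fell, in the combination 7 rose and 1 fell, and with AKTi none was called. Their median log2 fold change was 1.07, 0.91 and 0.10, against 0.03, 0.06 and 0.01 over all genes tested. DESeq2 gave the same counts, and at an unadjusted edgeR p under 0.05 there were 8 higher and 0 lower with EZH2i and 1 higher and 0 lower with AKTi. Of all genes 64.1%, 73.2% and 42.5% were called with EZH2i, in the combination and with AKTi. AC004080.2, HAGLROS and HOTAIRM1, the first pair named after their values were seen, reached the minimum of the count filter in no DMSO library, and without them 5 of 8 rose with EZH2i and 5 rose and 1 fell in the combination.

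HOXA11-AS (chr7:27184507-27189298, plus strand), the antisense partner of HOXA11, was at 5.12, 4.94 and 5.90 CPM in DMSO, 15.3, 9.76 and 12.4 with EZH2i and 12.1, 9.97 and 7.97 in the combination. It rose by 1.21 on the log2 scale with EZH2i (edgeR adjusted p = 2.04e-07) and by 0.91 in the combination (adjusted p = 2.74e-05), while HOXA11 fell in both. HOTTIP, the long noncoding RNA at the tail end of HOXA, rose by 1.47 with EZH2i, a call lost without EZH2i library A (log2 1.04, edgeR adjusted p = 0.0909), and its log2 fold change in the combination was 0.26. HOTAIRM1, at the head end of HOXA, rose from 9, 9 and 7 counts in DMSO by 1.73 with EZH2i and 1.59 in the combination, the latter not called without combination library B (0.91). HOTAIR, the antisense transcript beside HOXC11, had 2 counts in DMSO, 0 with AKTi, 26 with EZH2i and 31 in the combination, with ratios to DMSO of 11.9 (95% counting interval 2.98 to 103) and 14.2 (3.62 to 123). HOXC13-AS rose by 0.58 with EZH2i beside HOXC13. HOXA-AS3 fell by 1.09 in the combination.

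HAGLR (chr2:176164051-176188958, minus strand) runs from within HOXD3 to the start of HOXD1. It was at 0.538, 0.295 and 0.815 CPM in DMSO, 0.723, 0.841 and 0.695 with AKTi, 2.75, 1.81 and 1.10 with EZH2i and 2.84, 4.27 and 4.05 in the combination. Arms with EZH2i did not overlap DMSO, and HAGLR rose by 1.66 and 2.67 on the log2 scale (edgeR adjusted p = 0.000423 and 7.05e-08). HOXD1, with 60.1% of its exonic bases on the opposite strand of other genes, HAGLR among them, had no count in any library. Because the strand setting of the counting is not stated in the sources used here, reads of genes that overlap on opposite strands may have been dropped or assigned to either. The shares of HOXA11, HOXA6 and HOXC13 exons so shared are 27.2%, 39.3% and 7.3%. For HOXA3, HOXA9, HOXA10, HOXB6 and HOXC9 they are 17.3%, 13.9%, 16.4%, 16.3% and 9.78%, and for HOXB9, HOXB13, HOXC12 and HOXD13 0. On the same strand, HOXB6 shares 16.6% of its exonic bases with HOXB3, and HOXC6 shares 16.1% with HOXC4 and other genes.

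**Figure D4:**
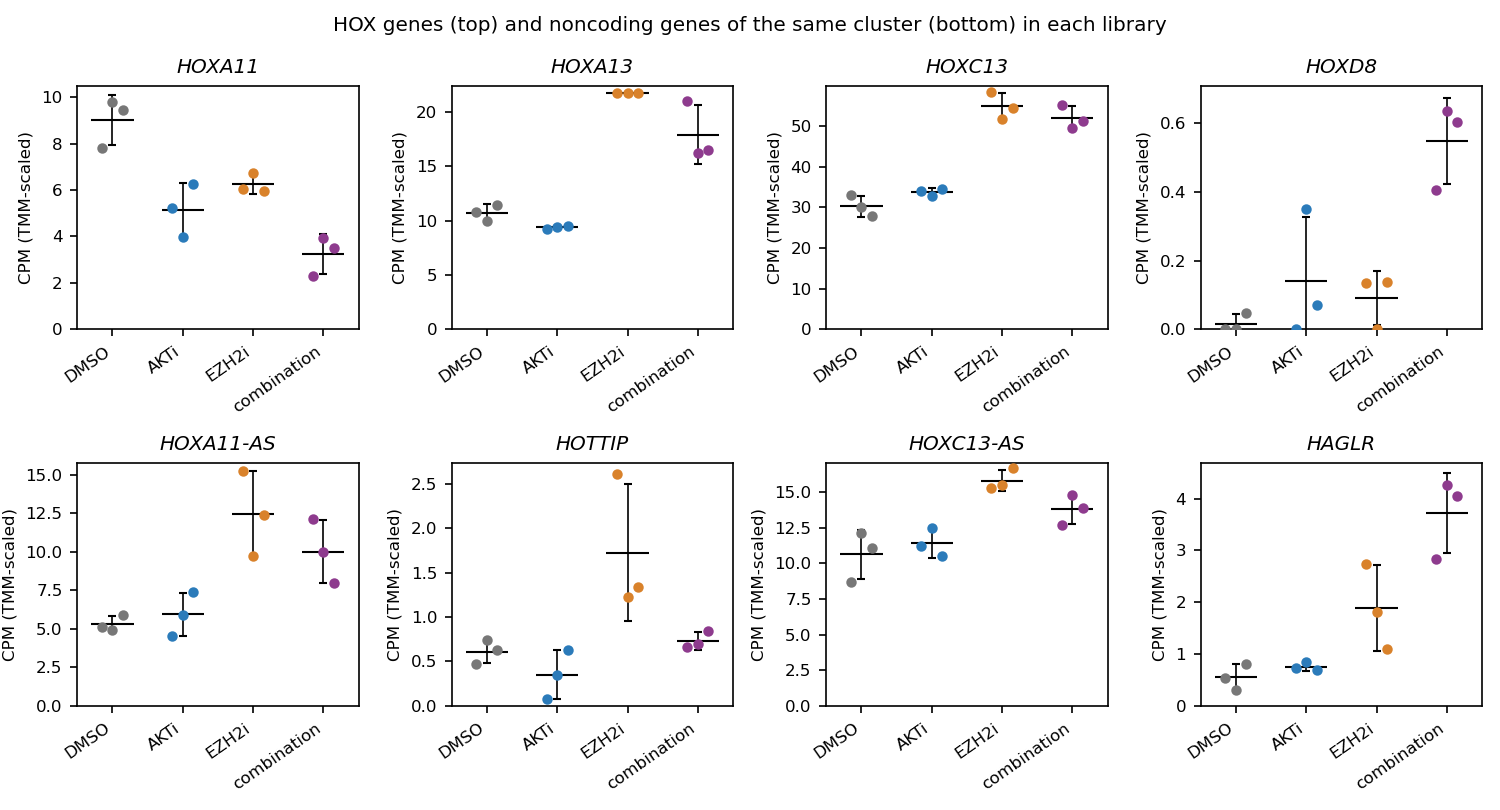
CPM in each library of HOXA11, HOXA13, HOXC13 and HOXD8 (top) and, below each, a noncoding gene of the same cluster (HOXA11-AS, HOTTIP, HOXC13-AS and HAGLR), by arm. Points are libraries, lines the mean and bars 1 SD (n = 3), on linear axes starting at 0. HOXA11 falls from DMSO to EZH2i while HOXA11-AS rises, and HAGLR and HOXD8 are highest in the combination.

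HOX proteins bind DNA together with TALE homeodomain partners of the PBX, MEIS and PKNOX families. Of 9 such genes 8 were tested. With AKTi 3 rose and 1 fell, with EZH2i 4 rose and 1 fell, and in the combination 5 rose and none fell (at an unadjusted edgeR p under 0.05, 6 and 0, and by DESeq2 5 and 0), with median log2 fold changes of 0.17, 0.55 and 0.77. Of all genes 42.5%, 64.1% and 73.2% were called in these comparisons, with medians of 0.01, 0.03 and 0.06. Without MEIS3, 3 of 7 rose and 1 fell with EZH2i and 4 of 7 rose in the combination. PBX2 rose in all 3 arms, by 0.39, 0.70 and 0.65. PBX3 rose by 0.87 with EZH2i and 0.98 in the combination. MEIS3 had 0, 0 and 4 counts in DMSO and 16, 22 and 40 with EZH2i, and it passed the count filter only through the arms with EZH2i, so it had to be higher there. MEIS1, a partner of HOXA9 in leukaemia, rose by 0.71 in the combination, a call lost without DMSO library A (0.53, edgeR adjusted p = 0.086).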

How the data were processed

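The material was polyA RNA-seq of C4.2B cells, with 4 arms and 3 replicates of each. Per the submitters' processing notes, the authors used STAR, HTSeq and DESeq2 on the build hg38, versions not given in the sources used here. The deposited counts are whole reads per gene for 58735 genes, with a gene length column that belongs to no sample. Normalized values deposited beside them were not used here. The HTSeq strand setting and the annotation release are not given in the sources used here, nor which libraries were sequenced where, so the fits hold no term for a batch.

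Low genes were removed by filterByExpr of edgeR 4.0.16 at a minimum count of 10 and a minimum total of 15, leaving 16646, which were scaled by TMM and tested with edgeR's quasi-likelihood test in R 4.3.3, with 1 mean per arm over 12 libraries. The interaction term is the difference between the effect of EZH2i in cells with AKTi and in cells without. P-values were adjusted by Benjamini-Hochberg over all tested genes at a threshold of 0.05, and 95% intervals of log2 fold changes are normal. CPM are counts per 1000000 TMM-scaled reads, and CPM per kilobase divide them by the gene length in the table. Ratios over 1 to 3 counts have exact binomial intervals. For an arm at 0 the floor is 3 counts, and the ratio to it leaves out the counting error of the other arm. Exon sharing was computed on GENCODE v44 (hg38), which may not be the annotation the authors used.

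The HOX genes, the lists (TALE cofactors, HOX activators, noncoding genes inside the clusters, protein-coding genes within 500 kb, cell type markers) and the tests were chosen with earlier results of these data known. Every HOX gene could be named, and of each other list at most the 6 called genes with the largest log2 fold change in a comparison, besides EZH2. HOXA11-AS, HOXC13-AS and HOTAIR are also named as neighbours of HOX genes, chosen after their values were seen. Tests were repeated in DESeq2 1.42.0, with upper quartile factors or none beyond library size, keeping all genes with a count (1 or more in total) or those with 10 or more throughout, on the compared arms alone, with a block for the letters, and leaving out libraries in turn, and, chosen after seeing the data, the HOXB sum without HOXB13 and the counts of each list without genes that reached the CPM minimum of the filter in no library of 1 arm compared but did in the other. Tested on simulated data for EZH2i against DMSO, edgeR recovered 178 of 200 changed genes with 12 false calls among 16646 genes. Only these 200 genes were changed there, all by the same size and as many up as down. In the real comparison 64.1% of genes were called, so the simulation does not cover smaller changes or the choice of scaling. Results of 2 genes are not reported here, although counts and medians include them. Figures were drawn with matplotlib 3.10.9 in Python 3.11.15.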

Additional observations from a re-analysis of the deposited data

Results flagged for a closer look

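For 7 HOX genes the effect of EZH2i differed between cells with and without AKTi, by the interaction term of edgeR's quasi-likelihood test. Of all tested genes 28.2% had a called interaction, 10.7% above and 17.5% below 0. Of the 25 tested HOX genes 2 (8%) were above and 5 (20%) below. In either direction the HOX share, 28%, was near that of all genes. HOXB13 had the strongest call, with an interaction of -1.05 ± 0.08 SE on the log2 scale (edgeR adjusted p = 4.25e-13). Its log2 fold change with EZH2i was 0.10 against DMSO and -0.94 when EZH2i was added to AKTi, with all 3 combination libraries below all 3 AKTi libraries. HOXB7 and HOXB9 went the other way, with interactions of 0.68 ± 0.22 (adjusted p = 0.0197) and 0.48 ± 0.15 (adjusted p = 0.0131). For HOXB9 EZH2i gave a log2 fold change of 0.97 without AKTi and 1.45 with it, and for HOXB7 0.69 and 1.38. The HOXB7 call was lost without DMSO library A, AKTi library C or EZH2i library C, and the HOXB9 call without DMSO library C (edgeR adjusted p = 0.0516).

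In HOXC, HOXC4 had an interaction of -0.92 ± 0.26 (adjusted p = 0.00647) and HOXC12 of -0.56 ± 0.13 (adjusted p = 0.000973). Both rose with AKTi and with EZH2i, and neither was called between the combination and EZH2i alone. The HOXC4 call was lost without DMSO library C, at a log2 value of -0.64 (edgeR adjusted p = 0.0628). In HOXA, HOXA10 had an interaction of -0.37 ± 0.12 (adjusted p = 0.0189), lost without DMSO library B, AKTi library B or C or combination library C (edgeR adjusted p 0.051 to 0.0897). HOXA3 had -1.54 ± 0.47 (adjusted p = 0.0121), with 1.88, 2.51 and 2.21 CPM with EZH2i and 0.76, 1.15 and 1.21 in the combination.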

How the results depend on the processing

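Over all HOX genes and comparisons there were 72 calls, of which 52 held in every alternative run, 20 were lost in at least 1 and 0 changed direction. Leaving out a library alone accounted for 12 of the 20. Another 12 gene and comparison pairs were called only in an alternative. Across left-out libraries the genes lower with EZH2i numbered 1 to 3 (1 without EZH2i library C, and also 1 with scaling by library size only), those with an interaction above 0 numbered 1 to 2 and those below 0 numbered 4 to 8 (8 without DMSO library A). Library size scaling and upper quartile scaling moved the median of all tested genes from 0.06 to 0.26 and 0.25 in the combination and from 0.03 to 0.17 and 0.15 with EZH2i. Under these scalings the summed log2 ratios became 0.22 or 0.19 for HOXA, 0.30 or 0.27 for HOXB and 1.24 or 1.21 for HOXC with EZH2i, and -0.32 or -0.33 for HOXA, -0.14 or -0.15 for HOXB and 1.22 or 1.21 for HOXC in the combination. For HOXB the ratio in the combination was -0.26 per kilobase and, reversed, 1.48 without HOXB13, which also gave 0.13 with AKTi and 0.86 with EZH2i. Of 119 calls among the other genes described, 36 were lost in at least 1 alternative and 1 gene changed sign, PSIP1 in the combination, from -0.14 to 0.054 or 0.042 under these scalings, named here after its value was seen. DESeq2 gave the same counts of HOX genes called as edgeR for each comparison with DMSO.

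The letters do not pair the libraries. Deviations of same-lettered libraries from their arm means correlated at -0.0583 to 0.0688 over 18 pairs, and 4 of 12 libraries correlated best with their own letter. With the replicate block all 72 calls held, and the HOX genes lower in the combination than with EZH2i numbered 8 instead of 7, HOXA5 being added. Depth limits the 14 genes under the filter, for which no absence can be read from a 0.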

Other observations

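The protein-coding genes within 500 kb of the clusters give a view of the flanks. Of 42 listed 29 were tested, and 14 rose and 10 fell with EZH2i, 12 and 13 in the combination and 8 and 7 with AKTi, with median log2 fold changes of 0.12, -0.003 and -0.02 beside 0.03, 0.06 and 0.01 over all tested genes, of which 64.1%, 73.2% and 42.5% were called. ABI3, named after its values were seen, reached the minimum of the count filter in no DMSO library, and without it 11 rose and 13 fell in the combination and 7 and 7 with AKTi. With EZH2i, without it and AC023509.3, likewise named afterwards, 13 of 27 rose and 10 fell. EVX1, a homeobox gene that lies beyond HOXA13, was at 1.14, 1.92 and 0.767 CPM in DMSO, 3.35, 3.74 and 3.58 with EZH2i and 5.63, 5.82 and 4.47 in the combination. It rose by 1.53 and 2.11 on the log2 scale (edgeR adjusted p = 9.41e-06 and 9.13e-09). SKAP2, a signalling adaptor on the other side of HOXA, rose by 0.99 with EZH2i. CALCOCO1, an autophagy receptor gene on the HOXC13 side of HOXC, rose by 1.34 with AKTi, 1.59 with EZH2i and 2.80 in the combination. ATP5MC1, a subunit of ATP synthase that lies near HOXB13, fell by 0.43 with AKTi, 1.23 with EZH2i and 2.45 in the combination. Apart from the flanks, 5 other protein-coding genes lie inside the spans, and 2 of them were tested. Both fell with EZH2i and in the combination, and 1 rose with AKTi. Among them PRAC1, a prostate and colon gene between HOXB13 and HOXB9, was at 28.3, 27.1 and 19.2 CPM in DMSO. With EZH2i it was at 18.2, 14.1 and 12.7, and fell by 0.73 on the log2 scale (edgeR adjusted p = 4.41e-06). PRAC1 rose by 0.36 with AKTi (edgeR adjusted p = 0.0138), a call lost without DMSO library C or AKTi library A or C. The falls of PRAC2, the other gene tested and named after its values were seen, were called under neither other scaling (edgeR adjusted p 0.0544 to 0.161). Its fall with EZH2i was also lost under both other count filters and without DMSO library B or C or EZH2i library B. Its fall in the combination was also lost without combination library C.

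Of 10 listed activators of HOX genes 8 were tested, with 2 higher and 2 lower with AKTi, 4 and 3 with EZH2i and 3 and 4 in the combination, where 42.5%, 64.1% and 73.2% of all genes were called. Their median log2 fold changes were 0.07, 0.05 and -0.05, beside 0.01, 0.03 and 0.06 over all tested genes. KMT2A, the methyltransferase that keeps HOX genes on, rose by 1.19 in the combination. DOT1L and MEN1, which act with KMT2A in leukaemia, fell by 1.10 and 0.64 in the same arm. RARB, a retinoic acid receptor, rose by 1.05, and CDX2, a homeobox activator of posterior HOX genes, fell by 1.19.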
